A study of Mus musculus with 8 samples.

Results

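Splenic B cells of mice homozygous for a germline deletion of the hs3b and hs4 enhancers were compared with wild-type B cells of the same state, either freshly isolated (resting) or stimulated. The libraries were chosen by genotype: 4 of the 8 libraries of the study were used for this comparison, namely hs3b-hs4 deletion resting, hs3b-hs4 deletion stimulated, wild-type resting and wild-type stimulated. The other 4 libraries came from mice homozygous for the 3'RR deletion or the 3'PAL deletion, again 1 resting and 1 stimulated each, and entered the fits that estimate the spread. The strain of all mice, spelled as in the labels, was mixed background 129/C58BL/6. B cells were enriched on a Lympholyte gradient and by depleting cells that carry CD43. Stimulated cells were then cultured for 48 hours with 5 µg/mL lipopolysaccharide (LPS), which activates B cells through the receptor TLR4, and passed over a gradient again. Each library came from a pool of 4 animals, so there was 1 library per genotype and state. No source used here says whether a genotype's 2 pools held the same animals.

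The 3' regulatory region (3'RR) is a cluster of enhancers downstream of Igha, the last constant gene of the immunoglobulin heavy chain (IgH) locus. Its enhancers act over long distances on the promoters that precede each constant gene, and hs3b and hs4 are known for driving germline transcription before class switching to most IgG isotypes. The same region raises heavy chain transcription in cells that become plasma cells, which switch Ighm mRNA from its membrane form to its secreted form.

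Total gene counts were 17883683 in wild-type resting, 24336168 in hs3b-hs4 deletion resting, 28785192 in wild-type stimulated and 25596608 in hs3b-hs4 deletion stimulated cells. Markers of B cells were high in each library compared. Pax5, the transcription factor of B cell identity, stood at 185 CPM (counts relative to library size, scaled with edgeR's TMM factors) in wild type and 148.1 CPM in hs3b-hs4 deletion cells at rest, with 98.89 and 106.5 CPM after stimulation. Cd79b, a signalling chain of the B cell receptor, stood at 447.7 against 534.8 CPM and at 429 against 461.5 CPM. The wild-type resting library stood apart, since AY036118, a gene model on chromosome 17, took 1.94% of its counts and at most 0.0842% of any other library. Resting libraries also differed in red cell transcripts, with the erythroid markers summing to 3068 CPM in wild type and 10590 CPM in hs3b-hs4 deletion cells. The sum was 13260 CPM in the 3'RR deletion and 21360 CPM in the 3'PAL deletion, so that wild type alone was low. No counted gene lies in the deleted enhancers, so the deletion itself could not be checked. Values within a state rest on 1 library each; their 95% intervals cover counting error only, and PCR copies are not independent molecules.

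IgG transcripts were lower in hs3b-hs4 deletion cells, while Ighm, the IgM heavy chain gene, was not. The constant genes lie on the minus strand of chromosome 12 (GRCm38). Ighg3, the constant gene of IgG3 at chr12:113359665-113361232, stood at 29.15 CPM in wild-type resting and 1.35 CPM in hs3b-hs4 deletion resting cells (569 against 35 counts). After stimulation the values were 99.64 and 23.17 CPM. In 3'PAL deletion cells Ighg3 stood at 33.01 and 35.03 CPM, and in 3'RR deletion cells at 0.17 and 0.04 CPM. The hs3b-hs4 values thus lay between those of the 3'RR deletion and wild type in both states. From this lower start, Ighg3 was 17.2-fold higher in stimulated than in resting hs3b-hs4 deletion cells, against 3.42-fold in wild type. Over both states its log2 fold change of -2.70 ± 0.76 did not pass the test (edgeR adjusted p = 0.338).

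Ighg2b, which encodes the heavy chain of IgG2b, stood at 13.47 against 5.24 CPM in resting cells and at 40.91 against 7.66 CPM in stimulated cells, wild type first. Its ratio to wild type was 0.389 (0.314 to 0.48) in resting and 0.187 (0.16 to 0.218) in stimulated cells. Ighg2c, which encodes the heavy chain of IgG2c, stood at 10.86 against 0.62 CPM and at 6.18 against 0.64 CPM, a log2 fold change over both states of -3.72 ± 0.43 (SE, edgeR adjusted p = 0.0374). Over both states, Ighg2c was the only IgH constant gene of 6 tested that passed this threshold. Without the wild-type resting library its adjusted p was 0.227. Ighg2c was at 0.73 and 1.12 CPM in 3'PAL deletion cells and at 0.03 and 0 CPM in 3'RR deletion cells, so that wild type alone was high. Inbred mouse strains carry either Ighg2c or its allelic form Ighg2a, which was not analysed here, so low Ighg2c through the deletion and through the strain origin of the locus cannot be told apart.

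Ighg1 showed no such difference in resting cells, at 7.28 CPM in wild type and 8.06 CPM in hs3b-hs4 deletion (ratio 1.11, 0.89 to 1.38), and was lower in stimulated cells, at 7.62 against 2.57 CPM (ratio 0.337, 0.25 to 0.447). With kallisto counts the resting log2 difference of Ighg1 turned from 0.13 to -0.57, and that of Ighg2b went from -1.21 to -1.97. Igha, the gene next to the deleted enhancers, stood at 15.37 against 31.22 CPM in resting cells and at 1.08 against 0.92 CPM in stimulated cells. The resting Igha value was above those of all 3 other genotypes, which ran up to 15.37 CPM. Ighe, the IgE constant gene, had 21 counts in wild-type and 2 in hs3b-hs4 deletion resting cells (ratio 0.0717, 0.00815 to 0.293) and was not tested. The light chain constant gene Igkc stood at 828.1 against 2026 CPM in resting and 2258 against 3396 CPM in stimulated cells, a log2 fold change of 0.97 ± 0.25 that did not pass the test (edgeR adjusted p = 0.299). Of the 75-base windows of the longest Ighg2c transcript 0.526%, and of that of Ighg3 0.598%, also occur unchanged in Ighg2b transcripts. Windows with mismatches were not counted, and Ighg1 was not compared.

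**Figure D1:**
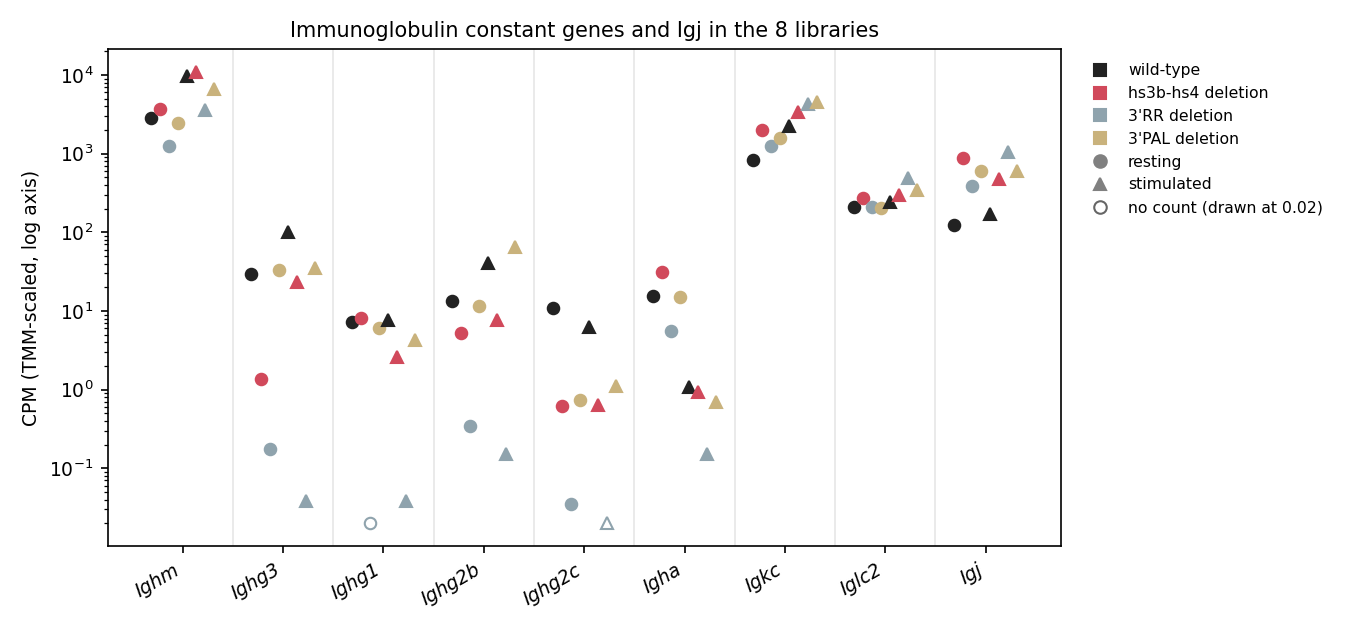
Level (CPM, log axis) of each immunoglobulin constant gene and of Igj in the 8 libraries; colours mark genotypes, circles resting and triangles stimulated cells, and open symbols libraries without a count. Ighg3, Ighg2b and Ighg2c of hs3b-hs4 deletion cells sit below wild type in both states, whereas Ighm, Igkc and Igj sit above it.

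Ighm as a whole stood at 2799 against 3685 CPM in resting and 9720 against 10970 CPM in stimulated cells, and its log2 fold change of 0.28 ± 0.17 did not pass the test (edgeR adjusted p = 0.736). Its 2 forms differed in opposite directions in resting cells. They share their coding exons up to the last constant exon and part there, as the coding ends show, with the 30 shared bases in lower case and the bases of 1 form alone in capitals, up to the base before the stop codon (GENCODE vM21, GRCm38, chromosome 12, minus strand).
secreted Ighm: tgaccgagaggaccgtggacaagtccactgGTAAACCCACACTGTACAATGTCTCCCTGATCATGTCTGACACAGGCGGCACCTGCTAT
membrane Ighm: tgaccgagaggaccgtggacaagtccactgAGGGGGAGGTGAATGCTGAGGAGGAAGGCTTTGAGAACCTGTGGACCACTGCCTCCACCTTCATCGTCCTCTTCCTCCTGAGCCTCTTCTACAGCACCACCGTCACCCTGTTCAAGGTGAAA
The 59 bases of the secreted tail (chr12:113420870-113420928) directly continue the shared exon. The 122 bases of the membrane end are spliced from a block of 116 bases (chr12:113418953-113419068), which includes the stretch for the membrane-spanning helix, and a block of 6 bases (chr12:113418829-113418834). Estimated counts of the secreted form were 18211 in wild-type resting and 70969 in hs3b-hs4 deletion resting cells. Those of the membrane form were 38994 and 26432.

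The secreted form thus held 72.9% of estimated Ighm counts in hs3b-hs4 deletion resting cells, against 31.8% in wild type, 24.1% in the 3'RR deletion and 25.6% in the 3'PAL deletion. After stimulation the 4 shares were 84.7%, 81.2%, 60.9% and 68.6% in the same order. Only the hs3b-hs4 deletion resting library had a share near those of stimulated cells. Estimated counts of all transcripts totalled 18166565 in wild-type and 18838317 in hs3b-hs4 deletion resting cells, and the ratios that follow also depend on TMM factors. As TMM-scaled CPM of the estimated counts, membrane Ighm was 0.51 times the wild-type level in hs3b-hs4 deletion cells at rest. The membrane form of Ighd, the IgD heavy chain gene, was 0.494 times its wild-type level there. In stimulated cells both were near wild type, at 0.901 and 1.02 times. Of the 23 genes listed as heavy chain RNA processing factors none passed the test, with a median log2 fold change of -0.05, against 0.04 over all 14744 genes tested. Ell2, an elongation factor that favours the secreted form in plasma cells, had the lowest p of them, at 36.63 against 50.61 CPM in resting and 137.2 against 181.1 CPM in stimulated cells (log2 fold change 0.43 ± 0.12, edgeR adjusted p = 0.319).

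**Figure D2:**
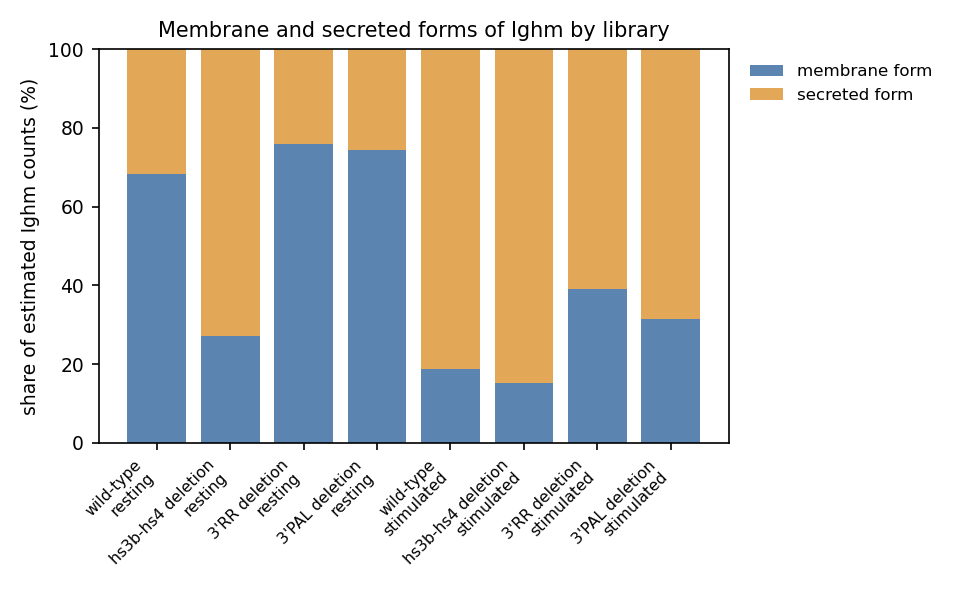
Share (%) of the membrane form and the secreted form among estimated Ighm counts in each of the 8 libraries, drawn as bars that fill to 100%. The secreted share of hs3b-hs4 deletion resting cells, 72.9%, is above that of the 3 other resting libraries, which hold 24.1% to 31.8%.

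Genes of plasma cells tended to lie above wild type in hs3b-hs4 deletion cells at rest without passing the test. Igj, the gene of the J chain that joins secreted IgM and IgA, stood at 123.6 CPM in wild type and 877.2 CPM in hs3b-hs4 deletion resting cells, the highest of the 4 resting libraries (388.8 in the 3'RR and 599.5 in the 3'PAL deletion). In stimulated cells it stood at 169.6 and 472.9 CPM, below the 1037 and 604.1 CPM of the other mutants. The log2 fold change of Igj over both states was 2.26 ± 0.47 (edgeR adjusted p = 0.204). Sdc1, the plasma cell surface proteoglycan CD138, stood at 7.07 against 14.69 CPM in resting cells, and Fam46c, an RNA poly(A) polymerase of plasma cells, at 115.2 against 231.1 CPM. In stimulated cells the 2 genes were closer, at 13.05 against 16.88 and at 141.7 against 171.8 CPM.

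Of the 24 plasma cell regulators and markers measured, 21 had a log2 fold change above 0 over both states, with a median of 0.28, and 11 had an unadjusted p under 0.05. Over all 14744 genes tested, 8403 were above 0, the median was 0.04 and 1303 had such a p. None of the 24 passed after adjustment over all genes tested with edgeR (lowest adjusted p = 0.204). In resting cells the median log2 level of 20 of these genes was 5.92 in hs3b-hs4 deletion, between 5.42 in wild type and 6.06 in the 3'PAL deletion. Irf4, a transcription factor that plasma cells need, stood at 734.4 against 802.3 CPM in resting cells, and Prdm1, the regulator Blimp-1, at 10.91 against 13.91 CPM. Those regulators differed less than Igj. The 35 genes of the secretory pathway at 10 CPM had a median log2 ratio of 0.25 in resting cells, against 0.06 over all genes at that level, and 34 had a median of 0.01 in stimulated cells. None of them reached 2-fold in either state.

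V segments, which carry the antigen-binding part of the chains, differed by class. Genes were counted as higher or lower within a state where they differed at least 2-fold on log2(CPM + 1), with at least 10 CPM in the higher library, which in resting cells held for 2.15% (higher) and 1.52% (lower) of all 8224 genes at that level. Of 50 kappa V segments 35 were higher in resting hs3b-hs4 deletion cells and none was lower. The summed level of kappa V segments was 742.5 CPM in wild type and 1863 CPM in the deletion. The summed level was also above wild type in the 3'PAL deletion (1482 CPM) and the 3'RR deletion (1228 CPM). IgH V segments summed to 447.3 against 654.1 CPM in resting cells and to 1675 against 1830 CPM in stimulated cells. Families 5 and 2, chosen after their values were seen, summed to 134.1 CPM in wild type and 287.4 CPM in hs3b-hs4 deletion resting cells and to 497.7 and 848.4 CPM in stimulated cells, and 4 of their 16 tested members were called higher by edgeR over both states. All other IgH V segments summed to 313.3 against 366.7 CPM and to 1178 against 981.8 CPM, with 0 of 78 called. Over all genes tested, 11 of 14744 (0.0746%) were called higher. Because the 2 families were picked with their values known, these shares cannot be compared. Which V segments a pool expresses depends on its B cell clones and on its IgH haplotype, and neither was measured apart from the deletion.

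Over both states, edgeR called 11 of 14744 genes higher (0.0746%) and 10 lower (0.0678%) in hs3b-hs4 deletion than in wild-type cells, while 1303 had an unadjusted p under 0.05, where 5% of the genes tested would be 737. Of the 21 genes called, 5 were V segments, 6 had clone or predicted-gene names and 10 were other genes. On chromosome 12, which carries the IgH locus, 5 of 595 genes tested were called, namely Ighg2c and 4 V segments. None of the 24 tested genes that neighbour the IgH locus, such as Crip1 and Mta1, was called, with a median log2 fold change of 0.14. The fit assumes the same difference in both states. Without the wild-type resting library 6 genes were called, 5 of them among the 21.

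Serinc3, a membrane protein known for restricting retroviruses, was the most strongly expressed of the genes that fell. It stood at 805.4 CPM in wild type and 127.4 CPM in hs3b-hs4 deletion resting cells, while stimulated cells held 702.2 and 68.16 CPM. The 3'RR deletion was near wild type (754.2 and 649.9 CPM) and the 3'PAL deletion near hs3b-hs4 (158.5 and 78.06 CPM). Levels thus fell into a high and a low pair of genotypes that did not overlap, with a log2 fold change of hs3b-hs4 against wild type of -3.02 ± 0.25 (edgeR adjusted p = 0.0132). Pkig, a protein kinase A inhibitor, is the next gene on chromosome 2 (Serinc3 at chr2:163623272-163645131, Pkig at chr2:163658386-163726158). Pkig showed the same 2 levels, 59.12 and 54.37 CPM in wild-type and 3'RR deletion resting cells and 28.75 and 29.27 CPM in hs3b-hs4 and 3'PAL deletion resting cells, but did not pass the test (edgeR adjusted p = 0.0629).

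Emb, the membrane glycoprotein embigin, stood at 52.87 against 16.5 CPM in resting and 69.59 against 12.83 CPM in stimulated cells (log2 fold change -2.06 ± 0.18, edgeR adjusted p = 0.0187). Here the 3'RR deletion shared the low level, at 13.53 and 14.55 CPM, and the 3'PAL deletion the high one, at 75.99 and 78.16 CPM. Abhd2, a lipid hydrolase, stood at 289.8 against 133.5 CPM and at 159.6 against 75.54 CPM (log2 fold change -1.10 ± 0.13, edgeR adjusted p = 0.0374, and 0.226 without the wild-type resting library). Its level in wild type was above that in all 3 mutants, which ran from 95.69 to 179.9 CPM in resting and from 65.21 to 97.61 CPM in stimulated cells. Whrn, the scaffold protein whirlin, stood at 16.96 against 1.16 CPM and 2.95 against 0.56 CPM, below all 3 other genotypes in both states (log2 fold change -3.28 ± 0.35, edgeR adjusted p = 0.0284).

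Ferritin light chain transcripts split between 2 genes. Ftl2, an intronless copy on chromosome 4 (chr4:125504288-125504839), stood at 70.49 CPM in wild-type resting cells (1376 counts) and had 1 count in hs3b-hs4 deletion resting cells (ratio 0.000547, 1.38e-05 to 0.00305). In stimulated cells it stood at 52.84 CPM in wild type and had no count in the deletion, at least 439-fold lower when set to 3 counts, the limit that a count of 0 allows in a library (edgeR adjusted p over both states = 0.000547). The other 2 mutants held 0 to 2 counts of Ftl2 in a library, so that wild type alone was high. Ftl1, the ferritin light chain gene itself, stood at 249.8 against 707.6 CPM in resting and 111.6 against 365.6 CPM in stimulated cells (log2 fold change 1.60 ± 0.16, edgeR adjusted p = 0.0209, and 0.0925 without the wild-type resting library). With kallisto counts the Ftl1 log2 fold change was 3.96 (edgeR adjusted p = 0.0514). Since 48.5% of the 75-base windows of Ftl2 occur in Ftl1 transcripts, reads may be split between them, and the sum of both genes was 2.21 times wild type in resting and 2.22 times in stimulated cells. The sum was also above wild type (320.2 and 164.4 CPM) in the 3'RR deletion (841.9 and 488.6 CPM) and the 3'PAL deletion (610.8 and 380.4 CPM).

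Slc4a1, the anion exchanger of red cells, was called higher (log2 fold change 1.79 ± 0.20, edgeR adjusted p = 0.0293) from its resting levels of 16.34 and 57.35 CPM, since each stimulated library held 1 count. Its resting level in the other mutants was 367.9 and 434 CPM, and without the wild-type resting library its log2 fold change was 0.14 (edgeR adjusted p = 0.993). All 7 erythroid markers at 10 CPM were at least 2-fold higher in resting hs3b-hs4 deletion cells, Hba-a1 at 1064 against 3517 CPM. The summed erythroid markers were higher still in the resting 3'RR and 3'PAL deletion libraries (13260 and 21360 CPM, against 10590 CPM in hs3b-hs4 deletion). H60b, a ligand of the NK cell receptor NKG2D, rose as well, from 0.56 to 10.75 CPM in resting and from 0.54 to 4.01 CPM in stimulated cells (edgeR adjusted p = 0.0209), and the 3'PAL deletion also had high levels, 14.41 and 6.11 CPM. With kallisto counts the resting log2 difference of H60b was 1.76 in place of 2.91. Htatip2, a short-chain dehydrogenase family member picked with its values known, had 11 against 159 counts in resting and 4 against 220 in stimulated cells (edgeR adjusted p = 0.0269). The other mutants held 6.43 to 9.36 CPM of Htatip2, so that wild type alone was low.

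**Figure D3:**
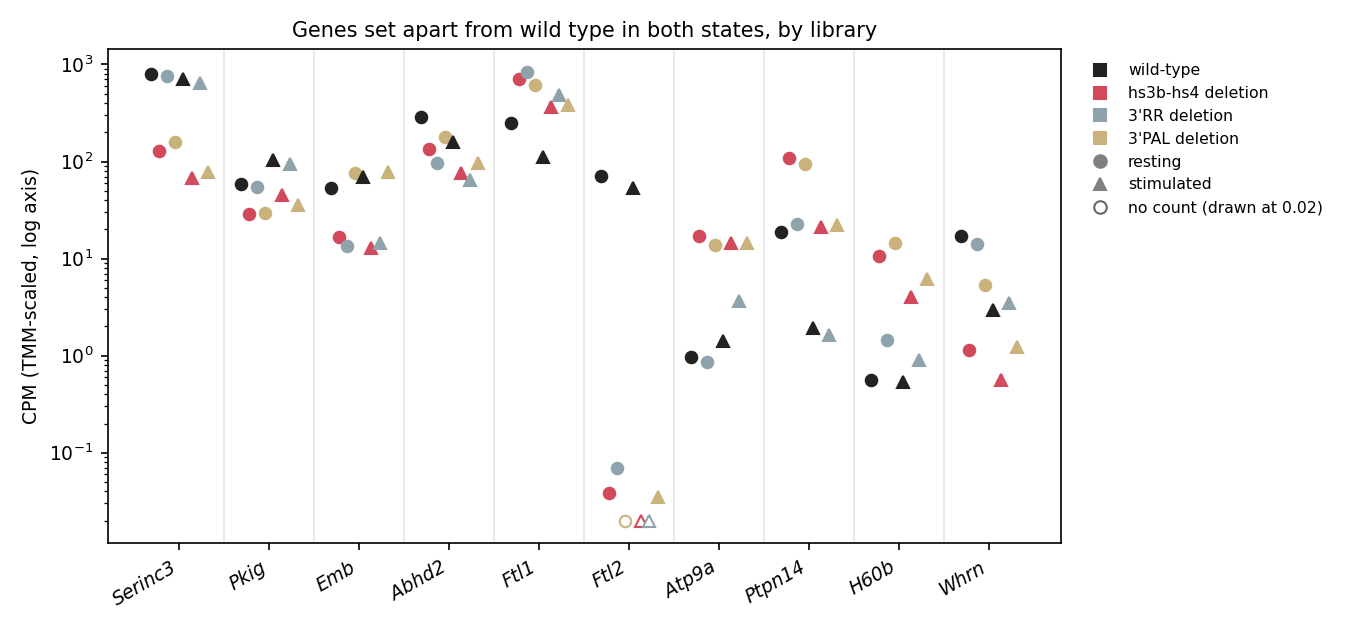
Level (CPM, log axis) of 10 genes in the 8 libraries, with colours for genotypes, circles for resting and triangles for stimulated cells, and open symbols for libraries without a count. Serinc3 and Pkig fall into a pair of high genotypes (wild-type and 3'RR deletion) and a pair of low ones (hs3b-hs4 and 3'PAL deletion), and Ftl2 is high in wild type alone, with 0 to 2 counts in each other library.

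By the same 2-fold rule, in resting cells 177 of 8224 genes were higher (2.15%) and 125 lower (1.52%), and in stimulated cells 53 of 8206 were higher (0.646%) and 69 lower (0.841%). With kallisto counts the stimulated split turned to 68 higher and 52 lower. Of 7386 genes with enough reads in both states, 62 were past 2-fold in both, 59 of them in the same direction (23 higher, 36 lower) and 3 in opposite directions. Among the 59 were 11 V segments, and 26 of the 59 lay outside the range of the other 3 genotypes in both states. Over all genes tested this share was 11.5%. The 59 were picked for lying beyond wild type on the same side in both states, so the 2 shares cannot be compared.

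Atp9a, a phospholipid flippase, stood at 0.97 CPM in wild type and 17.08 CPM in hs3b-hs4 deletion cells at rest, with 1.4 and 14.47 CPM after stimulation, but the test did not call it (edgeR adjusted p = 0.0652). Ptpn14, a tyrosine phosphatase, stood at 19.01 against 109.2 CPM and at 1.90 against 21.21 CPM (edgeR adjusted p = 0.0609). For both genes the 3'PAL deletion shared the high level, with 13.88 and 14.57 CPM for Atp9a and 94.31 and 22.22 CPM for Ptpn14. Among genes past 2-fold in resting cells alone were Prg2, the eosinophil major basic protein, at 1.69 against 23.17 CPM, and Il9r, the interleukin 9 receptor, at 39.86 against 175.7 CPM. Il9r in hs3b-hs4 deletion cells was above all 3 other genotypes in both states. Lower in resting cells were Dnah8, a dynein heavy chain, at 65.22 against 5.36 CPM, and Nxpe2 at 32.07 against 5.47 CPM, and both were lower in stimulated cells as well (9.81 against 2.85 and 16.07 against 3.09 CPM).

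**Figure D4:**
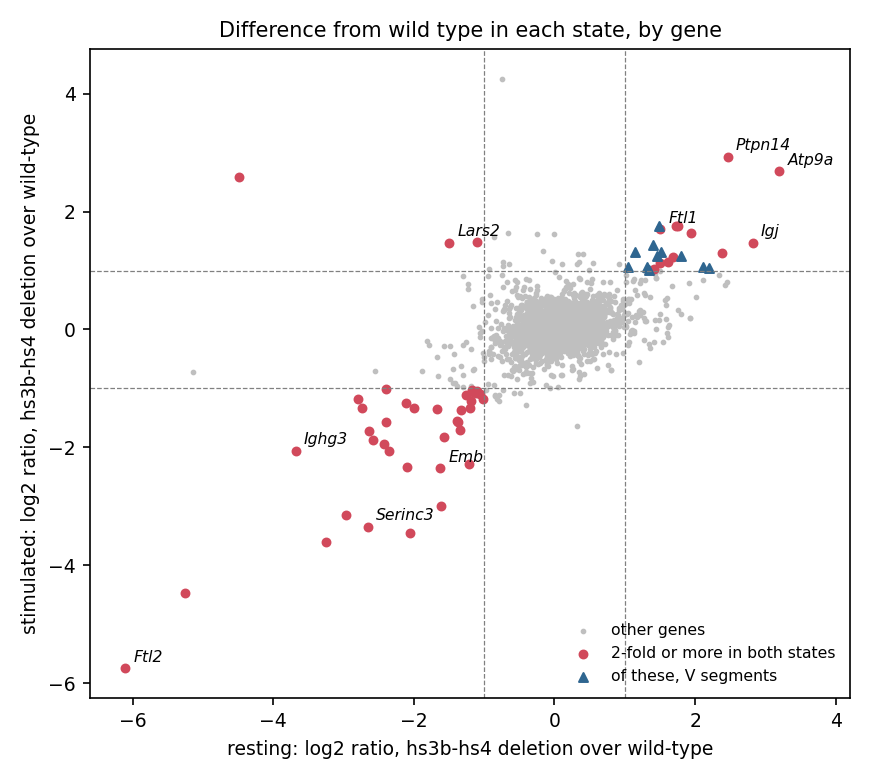
Log2 ratio of hs3b-hs4 deletion over wild type in resting cells (horizontal axis) and stimulated cells (vertical axis), 1 point per gene with at least 10 CPM in both states; dashed lines mark 2-fold, and coloured points the 62 genes past it in both states. Of these, 59 lie in the lower left or upper right corner.

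Against the mean of the 3 other genotypes, 58 of 14744 genes were higher in hs3b-hs4 deletion cells (0.393%) and 12 lower (0.0814%) in the same edgeR fit, which shares its wild-type libraries with the comparison above. Of these 70 genes, 13 were IgH V segments, all higher, and 28 had clone or predicted-gene names. IgH V segments summed to 186.1 and 560.8 CPM in resting and stimulated 3'RR deletion cells, which lowers the mean of the 3 others. Wild type held 447.3 and 1675 CPM, the 3'PAL deletion 403.5 and 1072 CPM and hs3b-hs4 deletion 654.1 and 1830 CPM. Against wild type alone, 4 IgH V segments were called higher. The part of the low 3'RR deletion level in the 13 calls was not tested. H2-M2, a nonclassical MHC class I gene, stood at 61.75 CPM in hs3b-hs4 deletion resting cells and at 7.93 to 11.27 CPM in the others, with at most 0.20 CPM in any stimulated library (log2 fold change against the 3 others 2.53 ± 0.23, edgeR adjusted p = 0.00795). Mmp12, the metalloelastase of macrophages, stood at 78.13 CPM against 13.04 to 22.13 CPM in resting cells (2.23 ± 0.20, edgeR adjusted p = 0.00795). The 14 macrophage markers summed to 732.6 CPM in that library, 486.8 in wild type, 1678 in the 3'RR deletion and 367.5 in the 3'PAL deletion, and 0 of 14 were without a count in either resting library. Their part in the Mmp12 level was not tested. Without the wild-type resting library the adjusted p values were 0.0593 for H2-M2 and 0.19 for Mmp12.

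Serinc3, Emb, Whrn and Dnah8 also stood apart from the mean of the other genotypes, with edgeR adjusted p values of 0.0151, 0.0172, 0.0198 and 0.0476. A mean of 3 genotypes hides that the 3'PAL deletion was near the low Serinc3 level and the 3'RR deletion shared the low Emb level, as given above. Hist1h2ap, a replication-dependent histone gene, stood at 40.57 CPM in wild type and 22.12 CPM in hs3b-hs4 deletion cells at rest, with 319.9 and 147.9 CPM in stimulated cells, the lowest of the 4 genotypes in both states (log2 fold change against the 3 others -1.04 ± 0.14, edgeR adjusted p = 0.0342). Of the cell cycle genes, 40 reached 10 CPM in at least 1 of the 4 libraries compared, in either state. Of these 40, 30 were also lowest of the 4 genotypes in hs3b-hs4 deletion cells at rest, against 1983 of 9044 over all genes. Only 21 cell cycle genes reached 10 CPM at rest in wild type or hs3b-hs4 deletion, so the other resting ranks are those of lower levels. Against wild type the 41 tested had a median log2 fold change of -0.08, with 10 above 0 and no unadjusted p under 0.05. Ly6k, a GPI-anchored surface protein, stood at 3.54 against 11.79 CPM and at 12.22 against 27.91 CPM, above all 3 others in both states (1.07 ± 0.14, edgeR adjusted p = 0.027, and 0.0593 without the wild-type resting library), and the 3'PAL deletion came next with 8.22 and 26.08 CPM. T cell markers summed to 31.97 CPM in wild type and 64.76 CPM in hs3b-hs4 deletion resting cells. Most of that difference was Cd4, at 13.52 and 39.78 CPM, while Lck stood at 13.73 and 19.2 CPM and Cd8a at 3.33 and 2.47 CPM, and 3 of 5 tested T cell markers had a log2 fold change above 0 over both states. Fewer cells of a type and less RNA per cell cannot be told apart in such pools.

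The LPS response of a genotype is the log2 level in stimulated minus that in resting cells. By size, the response of hs3b-hs4 deletion cells exceeded that of wild type by at least 1 on the log2 scale in 111 of 9044 genes (1.23%) and fell short by as much in 139 (1.54%). The edgeR test of the difference, which has 1 residual degree of freedom, called 4 of 14744 genes (0.0271%). An unadjusted p under 0.05 was found for 530 genes, fewer than the 737 that are 5% of the genes tested. Eps8l1, an adaptor protein of actin remodelling, stood at 29.3 CPM in wild-type resting and 0.08 CPM in hs3b-hs4 deletion cells at rest, with 6 and 2.2 CPM in stimulated cells, a difference of response of 7.04 ± 0.71 (edgeR adjusted p = 0.0296). Lars2, the mitochondrial leucyl-tRNA synthetase, went from 62.3 to 6.47 CPM in wild type and from 21.39 to 19.73 CPM in hs3b-hs4 deletion cells (3.15 ± 0.32, edgeR adjusted p = 0.0296). The wild-type resting library is the high one in both cases. AY036118, the gene model that set that library apart, and Lars2 both had their highest share of counts there (1.94% and 0.0068%). Both had their lowest share in wild-type stimulated cells (0.00755% and 0.000625%). Whether the 2 have a common source was not tested.

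Interferon response genes were mostly below wild type in resting and higher in stimulated hs3b-hs4 deletion cells. In resting hs3b-hs4 deletion cells 8 of 35 members at 10 CPM were at least 2-fold lower and 1, Ifi204, was higher (log2 ratio 2.08, but 0.67 and under 2-fold with kallisto counts), with a median log2 ratio of -0.52 against 0.06 over all genes. In stimulated cells 6 of 32 were at least 2-fold higher and none lower, with a median of 0.51 against -0.01. The response was larger than in wild type by at least 1 in 21 of 37 members and smaller in none, with a median difference of 1.06 against -0.07 over all genes. The edgeR test of the response called none of the 44 members tested (lowest adjusted p = 0.375), while 23 had an unadjusted p under 0.05, against 530 of 14744 genes. The only residual in that test is the difference between the responses of the 3'RR and 3'PAL deletions, whose medians over 37 members were 0.07 and 1.41. The test over both states averages opposite differences and does not bear on this pattern.

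Irf7, a transcription factor of the interferon system, stood at 32.84 CPM in wild-type and 20.43 CPM in hs3b-hs4 deletion cells at rest, with 6.65 and 22.89 CPM in stimulated cells. Oas2, an enzyme that senses double-stranded RNA, went from 12.71 to 1.04 CPM in wild type and from 3.2 to 4.65 CPM in hs3b-hs4 deletion cells. Ifit3, which binds foreign RNA complexes, went from 20.39 to 3.02 CPM and from 8.94 to 10.18 CPM. All 3 genes thus had their lower level after LPS in wild type and their higher level after LPS in the deletion. Ifi27l2a stood at 58.2 and 62.12 CPM in wild type and at 31.53 and 187 CPM in hs3b-hs4 deletion cells, a difference of response of 2.47 ± 0.51 that did not pass (edgeR adjusted p = 0.469).

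The response of these genes was set side by side for the 4 genotypes, each with 1 library per state and without a test. It exceeded that of wild type in 32 of the 37 genes in hs3b-hs4 deletion, 33 in 3'PAL deletion and 20 in 3'RR deletion cells. Over all 9044 genes the numbers were 3590, 3431 and 3984. Wild type and the 3'RR deletion thus lay close together. Over the 37 genes wild type had a median response of -0.10, against 0.85 in hs3b-hs4 deletion, 0.07 in 3'RR deletion and 1.41 in 3'PAL deletion cells. After stimulation wild type had the lowest level of the 4 genotypes in 29 of the 37 genes, and hs3b-hs4 deletion the highest in 2. In resting cells wild type had the highest level in 14 and hs3b-hs4 deletion the lowest in 17. Over all 9044 genes these counts were 2431 and 1516 after stimulation and 1554 and 1983 at rest, in the same order. These comparisons all use the same 2 wild-type libraries, of which the resting one stood apart in AY036118, and the part of that library in the result was not tested.

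**Figure D5:**
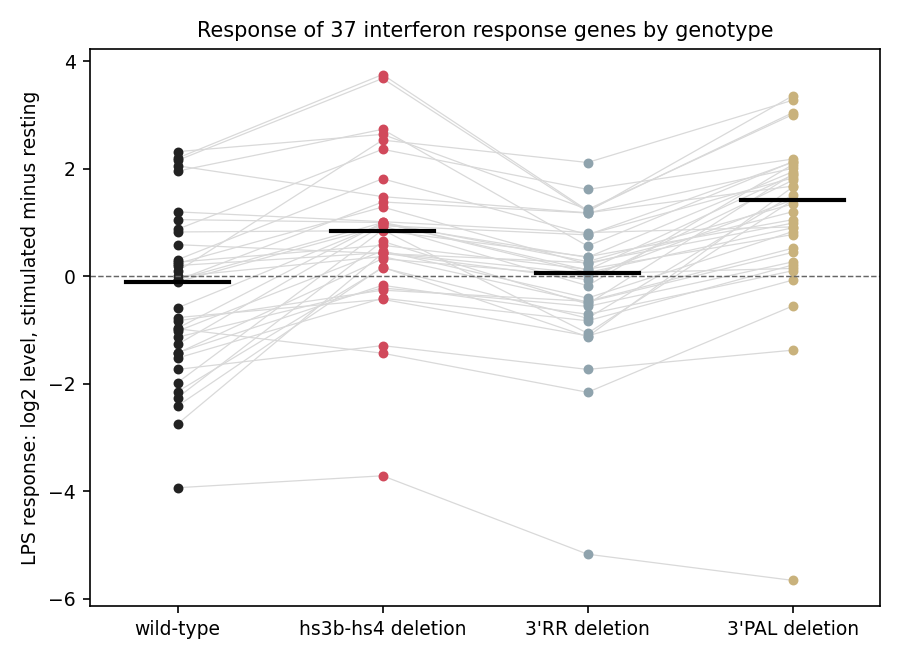
LPS response (log2 level in stimulated minus resting cells) of 37 interferon response genes in each genotype; each point is a gene, grey lines join the same gene and black bars are medians. The median is -0.10 in wild type, 0.85 in hs3b-hs4 deletion, 0.07 in 3'RR deletion and 1.41 in 3'PAL deletion cells.

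Many promoters of such genes are known to hold the interferon-stimulated response element, which STAT and IRF factors bind. The pattern searched was GAAA, any 2 bases and GAAA again, looked for on both strands of RefSeq promoter windows (GRCm38.p6, 250 bases before to 50 after a gene's start). It was found in 9 of the 15 genes with a window among the 21 whose response was larger, and in 10 of 16 with a window among the other 23 members, against 3.99% of 27025 symbols and 3.44% of all windows. Both shares were above that of all promoters, and the members with a larger response held the motif no more often than the others. Stretches around it from 6 of the 9 genes, written along the gene with every match in capitals (TTTC-containing matches are on the opposite strand), show how close it lies to the start.
Oas3 (chr5:120777710-120777749, minus strand): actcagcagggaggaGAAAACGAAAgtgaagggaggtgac
Ifit3 (chr19:34583358-34583397, plus strand): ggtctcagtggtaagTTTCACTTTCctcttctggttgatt
Oas1a (chr5:120907521-120907560, minus strand): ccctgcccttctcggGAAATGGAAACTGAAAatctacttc
Ifit1 (chr19:34640770-34640814, plus strand): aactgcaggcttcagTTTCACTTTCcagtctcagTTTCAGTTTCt
Bst2 (chr8:71537578-71537617, minus strand): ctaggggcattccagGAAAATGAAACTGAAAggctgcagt
Gbp2 (chr3:142620589-142620628, plus strand): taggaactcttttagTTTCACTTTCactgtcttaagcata
The first match begins 75 bases before the start in Oas3, 156 in Ifit3, 20 in Oas1a, 104 in Ifit1, 130 in Bst2 and 59 in Gbp2. Their differences of response by the size rule, hs3b-hs4 deletion minus wild type on log2(CPM + 1), were 2.84 for Oas3, 2.58 for Ifit3, 1.51 for Bst2 and 1.49 for Gbp2.

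Genes of a cluster on chromosome 7 had a different pattern. Trim12a, an antiviral TRIM family member at chr7:104299894-104315466, had 13 and 2 counts in wild-type resting and stimulated cells and 9 and 336 counts in hs3b-hs4 deletion cells, where it stood at 0.35 and 13.47 CPM. In 3'RR deletion cells it stood at 83.72 and 37.97 CPM and in 3'PAL deletion cells at 0.28 and 0.39 CPM. Trim30d, a neighbour at chr7:104470014-104507849, stood at 3.02 and 2.01 CPM in wild type and at 2.58 and 21.77 CPM in hs3b-hs4 deletion cells, and Trim34a, which lies across Trim12a, at 16.04 and 7.37 and at 15.88 and 24.74 CPM. The stimulated hs3b-hs4 pool alone was thus raised, to levels below those of the 3'RR deletion, which were high in both states. None of these passed the edgeR test of the response (adjusted p = 0.0847 for Trim12a, 0.375 for Trim30d and 0.651 for Trim34a). With kallisto counts the stimulated log2 difference of Trim30d was 4.03 in place of 2.92. A response to LPS and a difference between the animals of the resting and the stimulated pool cannot be told apart here.

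Single genes of other lists differed in their response, while the medians of those lists lay close to that of all genes. Egr1, an immediate early transcription factor, went from 132 to 12.04 CPM in wild type and from 79.25 to 27.79 CPM in hs3b-hs4 deletion cells, and Egr3 from 34.68 to 1.72 and from 17.19 to 2.61 CPM, with no median difference over the 27 genes of the list (-0.02). The chemokine Ccl22 went from 3.33 to 44.36 CPM in wild type and from 1.58 to 143.7 CPM in hs3b-hs4 deletion cells, and was alone among 34 genes of the NF-kB and TLR4 list in differing that much.

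The lists for growth and for division differed slightly and not in 1 direction. The response of the 40 cell cycle genes was larger than in wild type in 29, with a median difference of 0.14. All 26 ribosome biogenesis genes had a higher level after LPS in both genotypes, with a median response of 1.41 in wild type and 1.13 in hs3b-hs4 deletion cells, and in all 26 the wild-type response was the larger (median difference -0.34 against -0.07 over all genes). The wild-type response also exceeded that of the 3'PAL deletion in all 26 and that of the 3'RR deletion in all but 2, with medians of 0.77 and 1.20. These counts all use the same 2 wild-type libraries, of which the resting one stood apart in AY036118. In the edgeR test of the response, 0 of the 26 had an unadjusted p under 0.05. Polr1c, a subunit of RNA polymerase I, went from 22.13 to 46.01 CPM in wild type and from 32.34 to 43.9 CPM in hs3b-hs4 deletion cells. Of 21 glycolysis and nutrient uptake genes 2 responded more in hs3b-hs4 deletion cells (median difference -0.49), among them the glutamine transporter Slc1a5, which went from 67.01 to 87.71 CPM in wild type and from 21.93 to 72.17 CPM in the deletion. MHC class II presentation genes lay above wild type in 13 of 13 cases over both states. Their median log2 fold change was 0.30 against 0.04 over all genes tested, with no call (lowest edgeR adjusted p = 0.532). Wild type had the lowest stimulated level of the 4 genotypes for all 13, against 2431 of 9044 over all genes.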

How the data were processed

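Gene counts were deposited as raw counts per gene symbol, for which STAR 2.4.0a, Subread 1.4.6-p1 with featureCounts, and GRCm38 or mm10 are named, per the submitters' processing notes. Transcript values are estimated counts that the authors made with kallisto 0.42.3, per the same notes, and were summed per gene and rounded for 1 alternative. No source used here states the strand setting or annotation version. An entry without a gene name (0.00621 to 0.0342% of a library) and 93 spike-in entries without counts were left out. TMM scaling (trimmed mean of M values, factors 0.925 to 1.09) was done with edgeR 4.0.16 in R 4.3.3, and filterByExpr kept 14744 genes. The quasi-likelihood fit over all 8 libraries modelled state plus genotype, leaving 3 residual degrees of freedom and a biological coefficient of variation of 16%, and that of the response a state term for wild type, 1 for hs3b-hs4 deletion and 1 for the other mutants together (1 residual degree of freedom, 14.8%). Benjamini-Hochberg adjustment ran over every gene of the fit, and calls needed an adjusted p under 0.05. With 1 library per genotype and state, p values of the state plus genotype fit measure departures from adding these 2 effects, not the spread between replicate pools. In the response fit the only residual is the difference between the responses of the 3'RR and 3'PAL deletions.

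Within a state there was no test: genes were counted where log2(CPM + 1) differed by 1 or more and 10 CPM was reached in the higher library, with exact conditional binomial 95% intervals on ratios of counts. Fold changes on this scale understate changes of low genes. The members and the 28 gene lists were chosen with earlier results of these data known. Named were the 12 largest of each direction over both states that were called, had a mean log2 CPM no lower than 3 and kept their direction across states, the 10 largest of each direction within a state, the 8 largest for the response, the immunoglobulin constant genes and up to 4 members of a list. From these, a subset is described. Genes named for the comparison with the 3 other genotypes, and Htatip2, Pkig, Irf4, Prdm1, Sdc1, Egr3 and the 6 promoters printed, were chosen after their values were seen. DESeq2 1.42.0 served as an alternative, and the fitting code was tested on simulated data.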

Additional observations from a re-analysis of the deposited data

Results flagged for a closer look

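The difference of the LPS response between hs3b-hs4 deletion and wild-type cells passed the edgeR test in 4 genes. The only residual of that test is the difference between the responses of the 3'RR and 3'PAL deletions. A call therefore does not measure the spread between replicate pools of wild type or hs3b-hs4 deletion. The log2 values were 7.04 for Eps8l1, 5.41 for Gm1966, 3.15 for Lars2 and 7.08 for AY036118. Gm1966 and AY036118 are singled out here after their values were seen. Gm1966, a predicted gene on chromosome 7, stood at 16.39 and 3.52 CPM in wild-type resting and stimulated cells, at 9.33 and 85.36 CPM in hs3b-hs4 deletion cells, at 492.5 and 328.3 CPM in 3'RR deletion cells and at 10.42 and 6.70 CPM in 3'PAL deletion cells. AY036118 stood at 17750 and 78.08 CPM in wild-type cells and at 790 and 471.6 CPM in hs3b-hs4 deletion cells, so that its value rests on the wild-type resting library. With 1 state term for the 3 other genotypes, no gene passed.

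Lars2 was also at least 2-fold lower than wild type in resting cells and at least 2-fold higher in stimulated cells, a difference of 2.97 between the log2 ratios, which as a pair of single libraries was not tested. With kallisto counts the Lars2 difference was 6.93, and the cause of this change was not tested.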

How the results depend on the processing

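Without the wild-type resting library, an alternative chosen after seeing the data, 6 genes were called over both states (800 at an unadjusted p under 0.05) and 57 against the 3 other genotypes. Over both states the count of 21 was 7 without the 3'RR deletion and 37 without the 3'PAL deletion libraries, 179 in the 4 libraries alone, 189 without a filter on low counts and 181 with DESeq2, while DESeq2 size factors kept all 21 genes and kallisto counts shared 12 of their 23. Against the 3 other genotypes 190 genes were called without a filter. For the response, the 4 calls became 2 with library size alone, 2 with a stricter filter, 147 without a filter and 0 with 1 state term for the 3 other genotypes (429 at an unadjusted p under 0.05). By size, resting counts of higher and lower genes were 105 and 83 with a pseudocount of 5 CPM, 310 and 258 at 1 CPM and 45 and 34 at 50 CPM. Stimulated counts were 28 and 36, 99 and 118, and 17 and 26 under the same settings. Response counts were 198 and 243 at 1 CPM and 39 and 46 at 50 CPM, and 83 lower with the pseudocount of 5 CPM. The cause of these changes was not tested.

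Of 831 values of single genes recomputed under other settings, 722 kept their side of the threshold or moved within counting error, 74 moved by more, 30 lost and 5 gained a call, and none changed sign after a call. List medians given for the interferon, plasma cell, secretory (resting), ribosome biogenesis and glycolysis genes kept their sign with library size alone, DESeq2 size factors and kallisto counts. No paired analysis was possible because the labels give no replicate numbers and each genotype and state has 1 library, so the state term is the only pairing. A count of 3, the limit that no count allows, was 0.104 to 0.168 CPM before scaling in the 4 libraries compared.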
